A study of Mus musculus with 234 samples.

Results

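The 5 genes described here are the filamins *Flnc* and *Flna* and the BAG3 partners *Synpo2*, *Stub1* and *Capzb*. They were chosen by symbol from the 55538 features of a table of read counts in single cardiomyocytes (CMs), and all 5 passed the filter on low counts in every comparison. The CMs were picked by hand from Langendorff-dissociated hearts, and libraries were made with SMART-seq2, a method that reads along the whole transcript without molecular identifiers. The comparison asks whether the RNA of these genes differed between CMs that carry a human BAG3 with the P209L mutation and control CMs.

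The mice carried a construct in the Rosa26 locus in which the ubiquitous CAG promoter drives human BAG3P209L fused to eGFP once a stop cassette has been removed. The line goes back to 1 targeted embryonic stem cell clone, and PGK-Cre, a Cre that is not limited to CMs, removed the cassette. In homozygous mice both alleles carried the construct, with the cassette removed from one or both. The 24 control CMs of mouse M26 and 9 of mouse M73 come from animals that the labels give as control mice of strain C57BL/6; the study's methods describe controls as siblings that could be wildtype or carry PGK-Cre or the unrecombined construct alone, on a mixed background. Homozygous CMs (labelled PGKcre:BAG3P209L_homo) came from mouse M25, with 21 bright and 18 dim cells, and mouse M116, with 59 bright and 50 dim cells. Heterozygous CMs (PGKcre:BAG3P209L_het) came from mouse M72 alone, with 27 bright and 26 dim cells, and this genotype was not tested. Bright and dim refer to eGFP fluorescence. The age of the mice was 2 weeks, except that the age of mouse M72 is not given. The cell labels carry library codes of 2 series, one for M25 and M26 and another for M72, M73 and M116, and do not say how the series differ.

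BAG3 is a co-chaperone that joins the heat shock protein HSC70 (*Hspa8*), the small heat shock protein HSPB8 and the ubiquitin ligase CHIP (*Stub1*) in chaperone-assisted selective autophagy, by which mechanically damaged filamin is removed from Z-discs of striated muscle. Filamin C is the muscle filamin and the best known client of this pathway, and filamin A is its widely expressed relative. Synaptopodin-2 (*Synpo2*) binds BAG3 and links the complex to the membrane fusion machinery that encloses the client, and CapZ beta (*Capzb*) belongs to the dimer that caps actin filaments at the Z-disc and is itself bound by BAG3.

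Cells were summed per mouse and brightness class, which gave 8 sums from 5 mice. Levels are counts scaled to the total of the sum, as CPM. The sums held between 4096609 counts (control mouse M73) and 40508124 counts (bright CMs of mouse M116). CM markers were abundant in all 8 sums, at 73964 to 93841 CPM over 7 genes. The smooth muscle markers *Myh11*, *Tagln* and *Cnn1* were at or near 0, while *Acta2* lay between 241 and 1620 CPM. Fibroblast markers summed to between 22.9 and 2238 CPM, endothelial markers to between 153 and 450 CPM and immune markers to between 0.264 and 57.3 CPM. Human BAG3 reads stood at 294 and 233 CPM in homozygous bright CMs of mice M25 and M116, at 10.7 and 99.6 CPM in their dim CMs, and at 0.408 and 0.488 CPM in the controls. In mouse M72 they went against the labels, with 105 CPM in the cells labelled bright and 251 CPM in those labelled dim.

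Scaled to the length of its longest coding transcript, *Capzb* was the highest of the 5 genes, with a median over the 8 sums of 117 CPM per kb and a range of 83.5 to 135. *Stub1* followed at 18.6 CPM per kb (12.7 to 20.6). *Flnc* at 8.42 CPM per kb (5.64 to 11.02) and *Synpo2* at 7.27 CPM per kb (6.33 to 9.48) overlapped in range. *Flna* was lowest at 2.12 CPM per kb (1.30 to 3.81), and its range lay below that of *Flnc*. Among relatives and partners, *Hspa8* had the highest median, 259 CPM per kb, while *Hspb8*, *Bag3* and *Sqstm1*, the gene of the autophagy receptor p62, had values of 94.4 to 134, 60.8 to 96.3 and 55.7 to 150 CPM per kb over the sums.

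**Figure D1:**
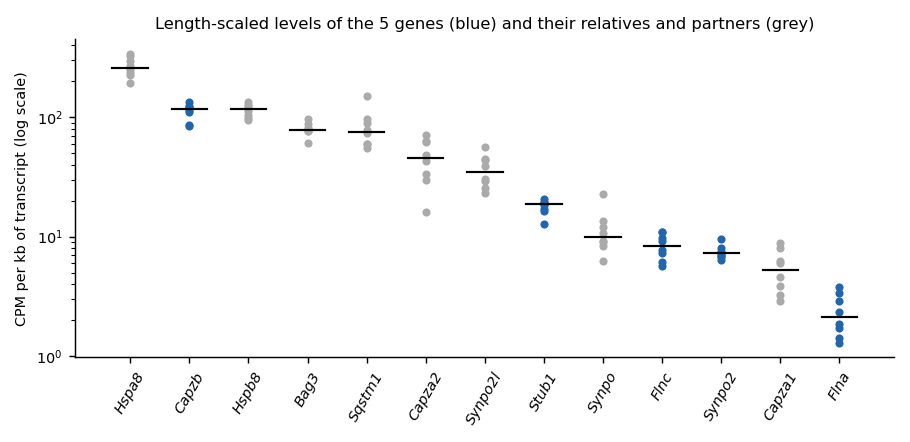
Levels of the 5 genes (blue) and of their relatives and partners (grey) in CPM per kilobase of transcript, on a log axis, with 1 point for each of the 8 sums and a bar at the median over the sums. *Capzb* lies about as high as *Hspb8*, *Flnc* and *Synpo2* overlap, and *Flna* lies below both.

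The genes also differed in how many cells they were read in. *Capzb* had a count in 220 cells, *Flnc* in 211, *Synpo2* in 199 and *Stub1* in 173. *Flna* had a count in 93 cells (39.7%), and the 23 cells with the most *Flna* held 74.8% of its CPM summed over cells, against 40.5% for *Flnc* and 29.0% for *Capzb*. The correlation of *Flna* with *Flnc* over 219 cells with at least 1000 genes detected, after the mean of each mouse and class was subtracted from log2(CPM + 1), was r = -0.02. These cells share mice, plates and depth.

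The promoters of both filamins and of *Synpo2* are shown because the filamins are read in such different shares of CMs and because *Synpo2* holds the only match of the 5 genes to the motif of MEF2, a family of muscle transcription factors. They run from 250 bases before to 50 bases after the gene start, 5′ to 3′ on the gene's strand, in RefSeq sequence of GRCm38.p6. *Flnc* lies at chr6:29432903-29433202 (plus strand, the first of 2 starts that RefSeq gives), *Flna* at chrX:74246485-74246784 (minus strand) and *Synpo2* at chr3:123236100-123236399 (minus strand). Capitals mark matches on either strand to the GC box GGGCGG, the MCAT element CATTCC, the TATA box TATAAA, the MEF2 site and the CArG box.
Flnc promoter: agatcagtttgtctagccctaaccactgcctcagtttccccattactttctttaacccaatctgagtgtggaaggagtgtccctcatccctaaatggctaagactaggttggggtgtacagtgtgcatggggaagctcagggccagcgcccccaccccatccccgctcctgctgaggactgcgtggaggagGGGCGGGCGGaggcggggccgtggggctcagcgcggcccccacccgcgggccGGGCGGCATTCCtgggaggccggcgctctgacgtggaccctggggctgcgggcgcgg
Flna promoter: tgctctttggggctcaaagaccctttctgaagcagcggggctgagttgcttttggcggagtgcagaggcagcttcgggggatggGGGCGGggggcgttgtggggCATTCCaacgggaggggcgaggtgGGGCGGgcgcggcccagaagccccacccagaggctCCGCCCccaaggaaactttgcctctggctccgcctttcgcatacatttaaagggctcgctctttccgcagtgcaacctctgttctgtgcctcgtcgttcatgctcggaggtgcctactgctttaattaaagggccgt
Synpo2 promoter: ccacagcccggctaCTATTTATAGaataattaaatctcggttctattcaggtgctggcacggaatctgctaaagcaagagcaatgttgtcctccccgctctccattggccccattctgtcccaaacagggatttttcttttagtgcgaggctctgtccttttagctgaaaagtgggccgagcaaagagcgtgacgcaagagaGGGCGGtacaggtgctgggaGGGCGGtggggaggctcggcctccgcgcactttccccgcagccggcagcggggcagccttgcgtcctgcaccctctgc

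Each filamin promoter held 3 GC boxes and 1 MCAT element, which starts at -1 from the gene start in *Flnc* and at -146 in *Flna*. Of the 3 GC boxes in *Flnc*, a pair overlaps. The *Synpo2* promoter held a MEF2 site near its 5′ end, with a TATA box match at -233 that lies within it, and 2 GC boxes. Of 32851 RefSeq promoters of this length, 35.7% held a GC box, 14.7% an MCAT element, 13.6% a TATA box, 3.19% a MEF2 site and 1.63% a CArG box. *Stub1* held 5 GC boxes and *Capzb* 1, with none of the other motifs, and no CArG box lay in any of the 5 windows.

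*Flnc*, the gene of the muscle filamin, lay between 51.0 and 99.6 CPM, and no comparison between groups passed the test. It stood at 69.3 and 51.0 CPM in controls M26 and M73, at 65.3 and 99.6 CPM in homozygous bright CMs of M25 and M116, and at 54.9 and 83.0 CPM in their dim CMs. In mouse M72 it stood at 97.996 CPM in bright and 88.8 CPM in dim CMs. Ordered by group mean of unscaled CPM, control CMs were lowest at 60.2 ± 12.9 CPM (SD, n = 2 mice), then homozygous dim at 68.9 ± 19.9 and homozygous bright at 82.4 ± 24.3, and these 3 groups overlapped. After TMM scaling in the fit of dim against control CMs, the dim mean was 62.0 and the control mean 66.3 normalized CPM. The order of these 2 groups thus depends on the scaling. Both classes of mouse M116 were higher than those of mouse M25, and these mice were in different code series, so that mouse and series cannot be told apart. The log2 fold change of homozygous bright against control CMs was 0.13 (SE 0.40, 95% interval -0.84 to 1.11, adjusted p = 0.980 by edgeR's quasi-likelihood test). Within the code series of M25 and M26 the log2 ratio after scaling by the TMM factor was -0.27 and within that of M116 and M73 it was 0.50. Dim against control CMs gave -0.10 (SE 0.42, interval -1.09 to 0.90), and this value was 0.07 without control M26 and 0.19 without mouse M25. Bright CMs were higher than dim CMs in both homozygous mice, with log2 ratios of unscaled CPM of 0.25 (M25) and 0.26 (M116), and the fit over the homozygous mice gave 0.23 (SE 0.31, interval -0.54 to 0.99, adjusted p = 0.999 by edgeR).

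*Flna*, the gene of the widely expressed filamin, was higher in dim than in bright homozygous CMs of both mice, but the difference did not pass the test. It stood at 10.98 and 14.4 CPM in controls M26 and M73, at 12.1 and 15.8 CPM in homozygous bright CMs and at 20.0 and 32.3 CPM in homozygous dim CMs of M25 and M116. In mouse M72 it was 28.6 CPM in bright and 24.7 CPM in dim CMs. Group means were 12.7 ± 2.4 CPM in control, 14.0 ± 2.6 in homozygous bright and 26.1 ± 8.7 in homozygous dim CMs (SD, n = 2 mice each). Control and bright CMs overlapped, and both dim sums lay above them. The log2 fold change of bright against dim CMs was -0.93 (SE 0.42, 95% interval -1.97 to 0.11, adjusted p = 0.999 by edgeR), and -0.90 in the paired fit with the mouse as a block (adjusted p = 1 by edgeR). It was -0.58 without dim CMs of M116 and -0.42 with limma on means over cells. Of 13439 genes tested, 0 (0%) were called here at an adjusted p of 0.05, 554 (4.12%) at an unadjusted one, and 16% were lower in bright CMs with no overlap between the groups, as *Flna* was. Dim against control CMs gave 0.73 (SE 0.71, interval -0.95 to 2.41), with 0.38 without dim CMs of M116 and 1.05 without those of M25, and bright against control CMs -0.20 (SE 0.80, interval -2.14 to 1.74), a value that was 0.11 without control M73.

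Few wells carried most of the *Flna* reads. In control M26, 1 of 24 cells held 88.8% of them, and without that cell the level was 1.31 CPM. In mouse M72 a single cell held 55.4% of the *Flna* counts of the bright and another 58.7% of those of the dim CMs, and without these cells the levels were 13.7 and 10.7 CPM. In homozygous dim CMs of mouse M116, by contrast, the leading cell held 19.8%. A count of *Flna* was found in 3 of 24 cells of control M26 and 4 of 9 (44.4%) of control M73, in 52.4% and 39.0% of the homozygous bright cells and in 61.1% and 40.0% of the homozygous dim cells of M25 and M116. When every cell was thinned to 100000 counts, which left out 5, 7 and 2 cells, *Flna* was counted in 3 of 20 cells of M26 and 3 of 8 (37.5%) of M73, and the shares were 14.3% and 17.3% in bright and 44.4% and 33.3% in dim cells. The control mice overlapped with bright cells on both scales and with dim cells as well.

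*Flna* moved with markers of other cell types. In 68 wells the summed level of 16 fibroblast, endothelial (without *Fabp4*) and immune markers was over 100 CPM, a limit set after the data were seen. Wells with few reads were kept, and in these a single marker read could exceed the limit. *Flna* stood at 54.3 CPM in these wells and at 7.16 CPM in the other 166, and it was higher in those over the limit in 7 of 8 sums. *Capzb* (195 against 193 CPM), *Flnc* (82.9 against 80.5 CPM) and *Stub1* (35.2 against 31.5 CPM) differed little between the same wells taken over all sums, and each was higher in wells over the limit in 4 of 8 sums. In single sums the ratio of wells over to wells under the limit ranged from 0.953 to 1.34 for *Capzb*, from 0.235 to 4.46 for *Flnc* and from 0.353 to 2.07 for *Stub1*. *Synpo2* was lower in wells over the limit, 53.4 against 75.1 CPM, in 8 of 8 sums, with ratios from 0.423 to 0.963 in single sums. Over cells, *Flna* correlated with fibroblast markers at r = 0.44, with endothelial markers at r = 0.35 and with immune markers at r = 0.13. Over the cells at or under the limit these values were 0.20, 0.07 and -0.09. Of the 10 wells with the most *Flna*, 9 were over the limit, and the exception was the top one, a dim cell of mouse M72 with 317 CPM of *Flna*, 312 CPM of *Flnc*, 7506 CPM of *Tnnt2* and 1.62 CPM of these markers.

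In the wells at or under the limit, *Flna* stood at 1.40 and 3.55 CPM in controls M26 and M73, at 4.22 and 6.02 CPM in homozygous bright CMs of M25 and M116, and at 8.005 and 8.52 CPM in their dim CMs. The control values rest on 24 counts in 2 of 20 wells (M26) and 7 counts in 1 of 5 wells (M73). The fits over these wells gave 0.74 for bright against control, where the direction was turned, 1.48 for dim against control and -0.75 for bright against dim CMs, none past the test. In mouse M72 the *Flna* level of these wells was 1.44 CPM in the cells labelled bright and 25.4 CPM in those labelled dim, where 1 cell held 196 of the 272 counts. Without that cell, left out after the data were seen, the level in cells labelled dim was 7.52 CPM. Over all wells, 6 of 6 endothelial and 4 of 4 tested immune markers were lower in bright than in dim homozygous CMs without overlap, as 16% of all genes were. The immune reads came from few dim wells, the highest at 1003.6 CPM in M25 and 1408.6 CPM in M116. Most dim wells had no read of these immune markers. The 6 fibroblast markers had higher estimates in bright CMs (median log2 fold change 3.24), 1 of them without overlap. Their summed level was higher in bright than in dim CMs of mouse M25 (2238 against 52.3 CPM) and lower in those of mouse M116 (57.5 against 208.7 CPM). In mouse M25 1 bright well stood at 44924 CPM of fibroblast markers, and the next highest bright well at 3230 CPM. The part of the endothelial, immune and fibroblast markers in the *Flna* difference was not tested.

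**Figure D2:**
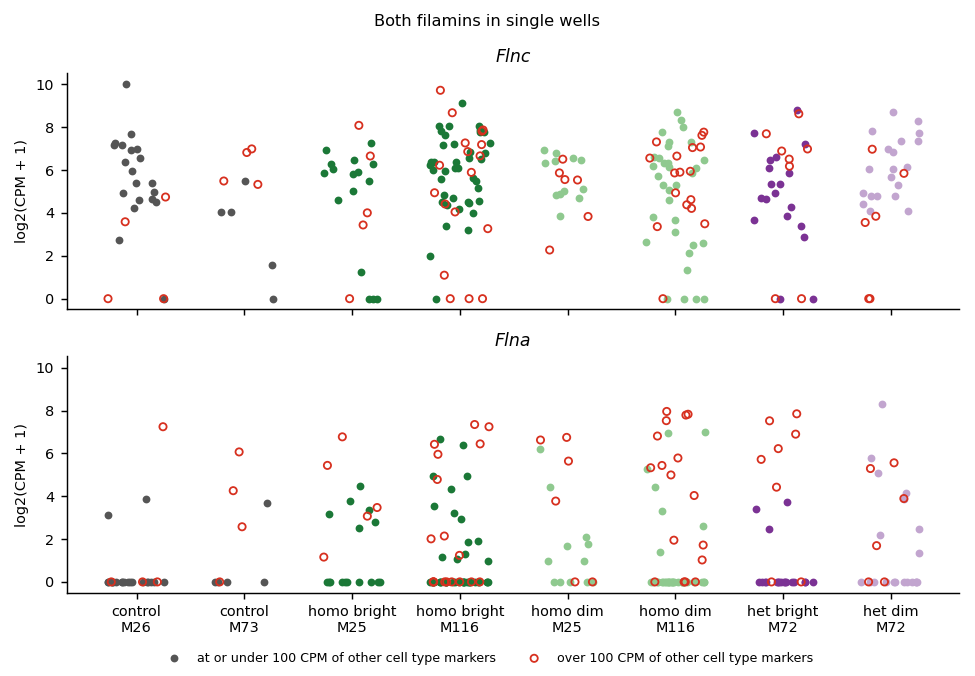
*Flnc* (top) and *Flna* (bottom) in each well as log2(CPM + 1), by mouse and brightness class. Open red circles are the 68 wells with over 100 CPM of summed fibroblast, endothelial and immune markers, filled points the other 166. Most wells have a *Flnc* count, while *Flna* is at 0 in most, and 9 of its 10 highest wells are open circles.

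The ratio of *Flnc* to *Flna* counts, which does not depend on the scaling of a library, was 6.31 in control M26 and 3.54 in control M73. It was 5.39 and 6.29 in homozygous bright CMs of M25 and M116, and 2.75 and 2.57 in their dim CMs. In mouse M72 it was 3.42 in bright and 3.599 in dim CMs. The bright CMs lay within the spread of the controls, with means of 5.84 ± 0.63 and 4.93 ± 1.96 (SD, n = 2 mice each, two-sided exact permutation p = 1, where 0.333 is the smallest p that 2 against 2 mice allow). As the median over cells with a count of both genes, the ratio was 7.05 and 4.85 in bright CMs and 1.31 and 1.86 in controls, medians that did not overlap, with a difference of 4.37 in place of 0.91 (two-sided exact permutation p = 0.333, the smallest possible). The control medians rest on 3 cells of M26, with ratios from 0.073 to 7.88, and 4 cells of M73, from 0.595 to 22.7, against 10 cells of M25 and 23 of M116, and cells without a *Flna* count are left out of them. By summed counts the dim CMs of both homozygous mice lay below both controls and both bright sums. In wells at or under the marker limit the control ratios were 54.8 (M26) and 5.14 (M73). The 2 control mice thus stood further apart there than any pair of homozygous sums. The dim ratios in these wells were 7.56 (M25) and 10.14 (M116). Both lay above control M73, and below control M26 and both bright sums, so that dim CMs no longer lay below both controls.

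*Synpo2*, the gene of the BAG3-binding Z-disc protein, was the member with the smallest ratio of highest to lowest level (1.497), from 58.3 to 87.2 CPM, and its differences did not pass the test. It stood at 87.2 and 67.9 CPM in controls M26 and M73, at 58.3 and 74.1 CPM in homozygous bright CMs and at 66.0 and 62.6 CPM in homozygous dim CMs of M25 and M116. In mouse M72 it was 63.1 CPM in bright and 68.5 CPM in dim CMs. Before scaling by the TMM factor the control and bright CMs overlapped. After it both bright sums (53.8 and 64.4 normalized CPM) lay below both controls (91.7 and 81.1 normalized CPM). In control M73 1 of 9 cells held 38.8% of the *Synpo2* counts. Without it the unscaled level there was 54.7 CPM, below both bright sums with all their cells. The log2 fold change was -0.55 for bright against control (SE 0.37, 95% interval -1.46 to 0.36, adjusted p = 0.906 by edgeR) and -0.56 for dim against control CMs (SE 0.38, interval -1.46 to 0.35, adjusted p = 0.979 by edgeR), and the value was below 0 in 12 of 12 alternatives of each comparison, with -0.08 and -0.00 as the values nearest to 0. Within code series the log2 ratios of TMM-scaled CPM of bright over control CMs were -0.76 and -0.33, while on unscaled CPM bright CMs of M116 lay above control M73. Both comparisons use the same control mice. Bright and dim CMs differed by 0.00 (SE 0.24, interval -0.59 to 0.60). *Synpo2* shares stretches of 50 bases with the annotated models of *Swi5* and *Olfr224*, so that some of its reads may have been left uncounted.

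*Stub1*, the gene of the ubiquitin ligase CHIP, was nearly level over control and homozygous CMs. It stood at 30.6 and 35.4 CPM in controls M26 and M73, at 33.9 and 34.1 CPM in homozygous bright CMs of M25 and M116, at 37.2 and 33.2 CPM in their dim CMs, and at 22.9 and 29.7 CPM in bright and dim CMs of mouse M72. Both sums of mouse M72 lay below all 6 others, by less than 1 CPM in the case of the dim sum. In control M73, 3 of 9 cells had a count and 1 held 72.4% of the reads, and without it the level there was 11.4 CPM. The log2 fold change was -0.29 for bright against control (SE 0.51, 95% interval -1.53 to 0.95), -0.20 for dim against control (SE 0.51, interval -1.43 to 1.02) and -0.08 for bright against dim CMs (SE 0.29, interval -0.80 to 0.64). Without control M73 the values against control were -0.08 (bright) and -0.02 (dim), without control M26 -0.45 and -0.36, and without wells over the marker limit -0.69 and -0.59. Without dim CMs of M116 the dim value was -0.10. *Jmjd8* overlaps *Stub1* on the opposite strand, and 42.3% of the exon bases of *Stub1* are shared with *Jmjd8* or a microRNA gene. The strand setting of the counting is not given in the sources used here, so the *Stub1* level is uncertain. *Jmjd8* itself was counted at 0.244 to 3.28 CPM.

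*Capzb*, the gene of the beta subunit of the actin capping protein, had its lowest CPM in mouse M72, and its differences between homozygous and control CMs did not pass the test. It stood at 210.9 and 193.8 CPM in controls M26 and M73, at 229.7 and 187.1 CPM in homozygous bright CMs of M25 and M116 and at 208.7 and 203.3 CPM in their dim CMs. In mouse M72 it was 142.2 CPM in bright CMs (exact Poisson 95% interval 136 to 149) and 145.8 CPM in dim CMs (139 to 152), below all 6 other sums. These intervals cover counting error only, and the difference of the 1 heterozygous mouse was not tested. The median counts per cell in mouse M72, 541665 and 564648, were close to the 498819 of control M73. The log2 fold change was -0.27 for bright against control (SE 0.31, 95% interval -1.02 to 0.47, adjusted p = 0.9496 by edgeR), -0.27 for dim against control (SE 0.31, interval -0.997 to 0.46) and -0.01 for bright against dim CMs (SE 0.23, interval -0.58 to 0.56). The first value was -0.43 without bright CMs of M25 and -0.10 without those of M116. The isoforms of the beta subunit cannot be told apart in counts per gene.

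**Figure D3:**
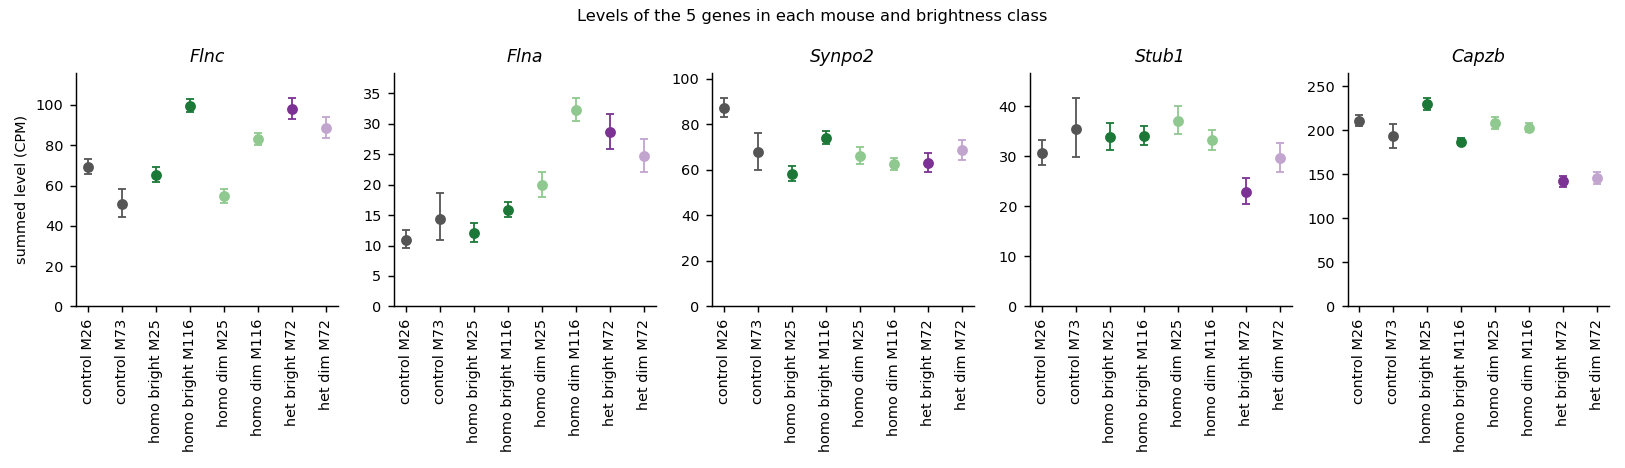
Level of each gene in CPM (vertical axis from 0) in the 8 sums of cells, by group and mouse. Bars are exact Poisson 95% intervals and cover counting error only. *Flna* is highest in homozygous dim CMs of mouse M116 at 32.3 CPM, and *Capzb* is lowest in both classes of mouse M72 at 142.2 and 145.8 CPM.

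Over the 3 comparisons none of the 5 genes was called. In homozygous bright against control CMs edgeR called 2 of 12203 genes (0.0164%), with 799 (6.55%) at an unadjusted p under 0.05, and none of the 5 was among either. In dim against control CMs 0 of 12195 genes (0%) were called, with 759 (6.22%) at an unadjusted p under 0.05, and again none of the 5; DESeq2 called 92 (0.754%) and 53 (0.435%) genes in these comparisons and 91 (0.677%) in bright against dim CMs, none of them a member. After TMM scaling, *Synpo2*, *Stub1* and *Capzb* lay lower in bright CMs than in both controls, and 14.8% of all genes did so. In dim CMs *Synpo2* and *Capzb* lay below and *Flna* above both controls, as 14.2% and 23.8% of all genes did. The median log2 fold change of all genes was 0.11 in bright against control CMs, and 0.41 when library size alone set the scale. By that scale *Flna* (0.14), *Stub1* (0.05) and *Capzb* (0.04) turned their direction, but relative to the median of all genes they stayed at -0.27, -0.37 and -0.37, against -0.31, -0.39 and -0.38 with TMM. Over 195 fits of a member, counting the alternatives, none had an adjusted p under 0.05, and the lowest was 0.459.

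**Figure D4:**
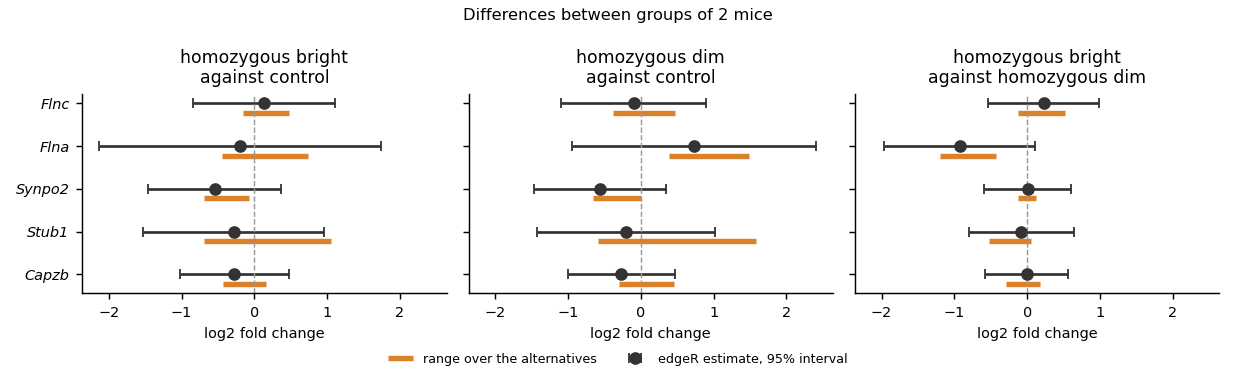
Log2 fold changes of the 5 genes in the 3 comparisons of 2 mice with 2 mice. Points are edgeR estimates with 95% intervals, and orange bars give the range over 12 alternative analyses. All 15 intervals include 0, and the interval of *Flna* for bright against dim CMs, -1.97 to 0.11, reaches least beyond it.

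The relatives of the 5 genes differed in how they stood between groups, and none passed the test. *Synpo*, the gene of synaptopodin, stood at 61.6 and 117.9 CPM in controls and at 55.2 and 46.6 CPM in homozygous bright and 43.4 and 32.2 CPM in homozygous dim CMs of M25 and M116, with a log2 fold change of -1.56 (SE 0.51, adjusted p = 0.735 by edgeR) in dim and -1.17 (SE 0.49, adjusted p = 0.783 by edgeR) in bright against control CMs. *Synpo2l*, whose product is a muscle relative of synaptopodin-2, stood at 101.7 and 128.9 CPM in controls and at 197.3 and 248.0 CPM in homozygous bright CMs, with a log2 fold change of 0.61 (SE 0.34, adjusted p = 0.876 by edgeR). In control M73 1 cell held 68.9% of the *Synpo2l* counts, and without the leading cell of each gene *Synpo2l* stood there at 47.0 and *Synpo* at 66.4 CPM. Of the alpha subunits that pair with CapZ beta, *Capza2* ranged from 41.0 to 178.6 CPM and *Capza1* from 9.24 to 28.2 CPM, and the lowest *Capza2* level was in control M73.

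The BAG3 autophagy list of 15 genes held no called gene in any comparison. In bright against control CMs 0 of 15 had an unadjusted p under 0.05, 6 had a positive and 9 a negative log2 fold change, and the median was -0.12 against 0.11 over all genes. After TMM scaling, the 5 genes that lay below both controls without overlap were *Bag3*, *Hspb8*, *Stub1*, *Synpo2* and *Tsc1*, a share to be read against the 14.8% of all genes. On unscaled CPM *Stub1*, *Synpo2* and *Hspb8* overlapped with the controls. The mouse gene *Bag3* stood at 246.7 and 202.6 CPM in controls and at 195.3 and 195.1 CPM in homozygous bright CMs, with a log2 fold change of -0.52 (SE 0.29, adjusted p = 0.874 by edgeR). In control M73 1 of 9 cells held 35.2% of the *Bag3* counts. Without it the unscaled level there was 153.2 CPM, below both bright sums with all their cells. *Hspb8* gave -0.53 (SE 0.29, adjusted p = 0.876 by edgeR), *Hspa8* -0.09 (SE 0.31) and *Sqstm1* 0.29 (SE 0.44). In dim against control CMs the median was -0.21 and *Tsc1*, named after its value was seen, was the 1 gene with an unadjusted p under 0.05, on the lower side. The 7 CM markers also had a median of -0.70 in bright and -0.64 in dim against control CMs. After TMM scaling 5 and 4 of them lay below both controls, where 14.8% and 14.2% of all genes did. The part of this in the values of the list was not tested.

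Of 12 CHIP cofactors, ubiquitin-conjugating enzymes and chaperone co-factors that act with this ligase, 10 were tested in bright against control CMs and 0 were called, with 5 on each side of 0 and a median of 0.03. *Hspbp1*, the gene of an HSC70-binding inhibitor of CHIP, had the lowest unadjusted p, at 46.3 and 112.5 CPM in controls and 36.3 and 38.1 CPM in homozygous bright CMs. Its log2 fold change was -1.45 (SE 0.57, adjusted p = 0.735 by edgeR), and -0.55 without control M73. Of 11 capping protein regulators 10 were tested and 0 called, with a median of -0.22. *Capg*, the gene of another filament capping protein, had 2 and 0 counts in controls and 16 and 268 counts in homozygous bright CMs, or 0.102 and 0 against 0.846 and 6.62 CPM (adjusted p = 0.739 by edgeR). In mouse M116 1 cell held 60.1% of these counts, with 2.71 CPM without it, and means over cells gave a log2 difference of 0.42 in place of the fitted 5.32. Without control M26 the control that remained, M73, had 0 counts, so that the fitted 9.27 there is not a measured ratio. The fitted value was 3.27 without bright CMs of M116. *Twf2*, named after its value was seen, was the 1 gene of this list with an unadjusted p under 0.05 in dim against control CMs, and it was lower.

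Of 15 filamin binding partners 14 were tested, and 0 were called in any comparison, with medians of -0.22 in bright and -0.31 in dim against control CMs. *Xirp2*, the gene of a filamin-binding actin-associated protein of the intercalated disc and Z-disc, had the lowest unadjusted p of the list. It stood at 288.6 and 346.6 CPM in controls, at 690.6 and 820.4 CPM in homozygous bright CMs of M25 and M116, at 266.7 and 166.6 CPM in their dim CMs, and at 259.1 and 311.8 CPM in bright and dim CMs of mouse M72. The log2 fold change was 0.91 (SE 0.30, adjusted p = 0.663 by edgeR) for bright against control and 1.76 (SE 0.30, adjusted p = 0.999 by edgeR) for bright against dim CMs, where DESeq2 gave an adjusted p of 5.44e-06 and edgeR without a filter on low counts one of 3.98e-09. This value was 0.77 without wells over the marker limit (adjusted p = 1.000 by edgeR) and 0.16 with limma on means over cells (adjusted p = 1.000 by limma). Single cells carried the bright sums: 1 cell held 70.3% of the *Xirp2* counts in mouse M25 and 1 held 39.5% in mouse M116. Without these cells the levels were 215.7 and 504.6 CPM, and the medians over cells, 167 and 286 CPM, stood beside 259 and 160 CPM of controls M26 and M73. In wells at or under the marker limit the log2 fold change against control was -0.18.

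Between cells the correlations among the members were low, and the part of sparse counts in this was not tested. Of the 10 pairs, *Flnc* with *Synpo2* had the highest correlation at r = 0.19, and the other 9 lay between -0.04 and 0.11. *Flnc* correlated more with the chaperone genes *Hspb8* (r = 0.28), *Hspa8* (r = 0.28) and *Bag3* (r = 0.23), and with human BAG3 reads at r = 0.16. It also correlated with the log2 of the total counts of the cell at r = 0.32, and depth is shared by all genes of a cell. *Stub1*, *Capzb* and *Flna* correlated with *Bag3* at 0.01, 0.02 and 0.04. Over the 157 of the 219 cells with at least 1000 genes detected that lay at or under the limit of other cell type markers, *Flnc* correlated with *Hspb8* at 0.25, *Hspa8* at 0.17, *Bag3* at 0.27 and human BAG3 reads at 0.076, and *Stub1*, *Capzb* and *Flna* correlated with *Bag3* at 0.06, 0.15 and 0.10.

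Over the 8 sums, *Stub1* and *Capzb* went together (r = 0.79) and *Flnc* went against both (r = -0.81 and -0.72), on log2 normalized CPM. The sums share 5 mice, and those of mouse M72 are the lowest for *Stub1* and *Capzb* and among the 3 highest for *Flnc*. Among 6326 genes with a mean of at least 10 CPM, those most like *Flnc* were *Tmem14c* (r = 0.95), *Cds2* (0.93) and *Thrap3* (0.93), and those most like *Flna* were *Mrtfb* (0.95), *Ppp6r1* (0.93) and *Ankrd28* (0.91). *Stk39* (0.96), *Gpt2* (0.93) and *Gm11273* (0.92) were most like *Synpo2*. *Mrps30* (0.98), *Fbxo32* (0.97) and *Rnf166* (0.97) were most like *Stub1*, and *Chmp2a* (0.99), *Bag1* (0.98) and *Pcbd2* (0.96) most like *Capzb*. With 8 sums such values are descriptions, and 4 to 28 genes had an r over 0.9 with a given member.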

How the data were processed

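Single CMs of 5 mice were measured by SMART-seq2. The authors mapped reads with STAR, with human BAG3 and eGFP sequences added to the mouse genome, and deposited raw counts per gene as whole numbers. Genome build, annotation and strand setting are not given in the sources used here. The 5 genes and all gene lists were chosen with earlier results of these data known. A cell held 487 to 1392253 counts, and 15 of 234 cells had fewer than 1000 genes and were kept. No cell repeated another's values, and doublets were not called, as cells were picked by hand.

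Counts were summed per mouse and brightness class and compared with edgeR 4.0.16 in R 4.3.3 (filterByExpr, TMM, glmQLFit, glmQLFTest, Benjamini-Hochberg adjustment over all genes, threshold 0.05), 2 mice against 2. Bright and dim CMs of a mouse come from the same animal and so are pairs; over 9324 genes, themselves not independent, the M25 to M116 difference of the bright sums and that of the dim sums correlated at Pearson r = 0.108 and Spearman rho = 0.164. The fit with the mouse as a block was an alternative and changed no call.

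Genes named besides the members were fixed relatives and complex partners, up to 2 genes per list with the lowest unadjusted p under 0.05 in bright against control CMs, and the 3 genes most like each member; 1 gene of this rule is not reported here. Transcript lengths and overlaps come from GENCODE on GRCm38, and promoters from RefSeq, which held all 5 genes. The alternatives were DESeq2 1.42.0, library size alone, no filter, cells with at least 1000 genes, all 8 sums in 1 fit, the series of library codes as a term, limma 3.58.1 on means over cells of log2(CPM + 1), each mouse left out and, added after seeing the data, wells over 100 CPM of other cell type markers left out. In bright against dim CMs a single sum was left out in place of a mouse.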

Additional observations from a re-analysis of the deposited data

Results flagged for a closer look

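The log2 ratio of *Flna* CPM in bright over dim CMs was 0.22 in the heterozygous mouse M72, against -0.72 in mouse M25 and -1.03 in mouse M116. By its labels the heterozygous mouse went the other way from both homozygous mice. This difference was not tested, and there is 1 heterozygous mouse. In each class of mouse M72, 1 cell held over 50% of the *Flna* counts (55.4% and 58.7%), and the human BAG3 reads of this mouse were higher in the cells labelled dim, so that its direction is in doubt. In wells at or under the limit of other cell type markers its *Flna* level was 1.44 CPM in cells labelled bright and 25.4 CPM in those labelled dim, with 196 of the 272 counts of the latter in 1 cell and 7.52 CPM without it.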

How the results depend on the processing

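With 2 mice per group the intervals of the members span over 1 log2 unit, and differences within them could not be told from 0 at this number of mice. The 5 members gave 180 alternative values, of which 29 had another direction than the reported one and 0 passed an adjusted p of 0.05.

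The number of genes called in homozygous bright against control CMs was 2. It became 163 without the filter on low counts, 92 with DESeq2, 10 with the series of library codes as a term, 5 with all 8 sums in 1 fit and 4 with limma on means over cells, and it lay between 0 and 41 with each mouse left out (0 without control M26, 15 without bright M25 and 41 without bright M116). In dim against control CMs it was 0, and became 58 without the filter, 53 with DESeq2, 12 with the code series as a term, 1 with all 8 sums and 1 with limma, with 3 to 827 when a mouse was left out (827 without control M26). In bright against dim CMs it was 0, and became 217 without the filter, 91 with DESeq2 and 2 with limma, with 0 to 74 when a sum was left out (74 without bright M116). With the mouse as a replicate block 0 genes were called there, and the block changed no call of a member. A fit that leaves out 1 sum takes the spread of the lone sum from the other group. The cause of these differences was not tested.

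Library size alone turned *Flna* (0.14), *Stub1* (0.046) and *Capzb* (0.044) in bright against control, *Flnc* (0.20), *Stub1* (0.094) and *Capzb* (0.027) in dim against control, and *Capzb* (0.017) in bright against dim CMs. Means over cells with limma turned *Flna* (0.49), *Stub1* (1.05) and *Capzb* (0.16) in bright against control, *Flnc* (0.48), *Stub1* (1.58) and *Capzb* (0.46) in dim against control, and *Flnc* (-0.13) and *Synpo2* (-0.075) in bright against dim CMs. DESeq2 turned *Capzb* (0.0039) in bright against dim CMs. Without wells over the marker limit *Flna* (0.74) and *Xirp2* (-0.18) turned in bright against control and *Flnc* (0.43) in dim against control CMs, and the difference of the *Flnc* to *Flna* ratio between bright and control CMs went from 0.91 to -14.8; as a median over cells it was 4.37. With each mouse left out, *Flnc* ranged from -0.16 to 0.42 and *Flna* from -0.45 to 0.11 in bright against control CMs. *Flnc* ranged from -0.39 to 0.19 in dim against control CMs, and the ratio difference from -0.47 (without control M73) to 2.30. In bright against dim CMs each sum was left out in turn, which kept the other class of that mouse. There *Flnc* ranged from -0.051 to 0.52, *Stub1* from -0.19 to 0.046, *Synpo2* from -0.12 to 0.12 and *Capzb* from -0.22 to 0.18. The *Flnc* value that turned without bright M116 was -0.051, and that without dim M25 -0.0057; *Synpo2* turned without bright M116 (-0.12) and without dim M116 (-0.059).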
